A study of Mus musculus with 13 samples.

Results

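Trp53 encodes p53, a transcription factor that halts the cell cycle or starts cell death when DNA is damaged or an oncogene is overactive. The genes described here are Trp53 and 7 genes that act on it or under it, 8 of the 21631 protein-coding genes with a span in the RefSeq table used. They are Mdm2, Mdm4, Cdkn2a, Atm, Chek2, Ppm1d and Cdkn1a. A call was taken when the deposited annotation named one of them. The genes were chosen by the coding call seen in Trp53 in the B-ALL table, together with its known regulators and target, so that the values below describe them and test nothing.

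The study sequenced the whole genomes of GFP+ bone marrow cells of C57BL/6 mice, 8 to 10 weeks by the labels, in which leukaemia followed a retrovirus carrying N-Myc, a Myc family transcription factor. There were 7 libraries, 1 per group. B-ALL cells were B220+GFP+, T-ALL cells CD3+GFP+ and AML cells Mac1+Gr1+GFP+, and cells of AUL, an acute undifferentiated leukaemia, were B220-CD3-Mac1-Gr1-GFP+. These came from 2000000 cells each. Of a mixed phenotype leukaemia, M-MPAL was the GFP+Mac1/Gr1+B220-CD3/4/8- fraction and T-MPAL the GFP+Mac1/Gr1-B220-CD3/4/8+ fraction, from 1000000 cells each, and the labels do not say whether both came from the same mouse. The empty control was GFP+ cells from 1000000 cells of mice that the labels call empty control, with no further description of the vector. Strain, tissue and the GFP gate were shared by all 7 groups. The labels name no Cre, transgene or clone, no number of mice per library and no DNA from healthy tissue of the same mice, so that inherited and acquired changes cannot be told apart. DNA tables cannot check the cell types against marker expression.

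In a resting cell p53 is kept low by Mdm2, which marks it for destruction, and by the related protein Mdm4, which blocks its activity. Cdkn2a encodes p19Arf, which holds Mdm2 back when Myc is high, and p16Ink4a, an inhibitor of cyclin-dependent kinases. After DNA breaks the kinases Atm and Chek2 phosphorylate p53, and the phosphatase Ppm1d removes such marks. Among the genes that p53 switches on, Cdkn1a encodes p21, an inhibitor of cyclin-dependent kinases. In mouse models of Myc-driven lymphoid tumours, loss of p53 or p19Arf is a known companion of Myc.

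Trp53 was the gene among the 8 with a call in coding sequence, and that call was in the B-ALL library alone. All other calls in these genes lay in introns or 3′ UTRs. Nearly all were length changes in annotated repeats, most of them simple repeats. The starts of 5 repeat tracts are shown as examples (mm10, plus strand). Each has the inserted or removed bases in capitals at the left end, where the caller placed them. Where the allele is longer, the letters are those of the longer allele. They then include bases that mm10 lacks, so the stated span does not match them base for base.
Trp53 intron, chr11:69583876-69583905, 2 bases gained or lost: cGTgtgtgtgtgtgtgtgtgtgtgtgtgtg
Mdm2 intron, chr10:117706073-117706102, 2 bases gained: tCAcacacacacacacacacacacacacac
Chek2 intron, chr5:110866720-110866749, 8 bases lost: aAAATAAATaaataaataaataaataaata
Ppm1d intron, chr11:85328604-85328633, 4 bases gained: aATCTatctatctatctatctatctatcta
Ppm1d intron, same start, 8 bases gained: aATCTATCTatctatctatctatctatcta
Atm intron, chr9:53524060-53524073, 1 base gained: gTttttttttttttt
The Trp53 tract runs over 48 bases with 23 GT units, the Mdm2 tract over 42, the Chek2 tract over 40, the Ppm1d tract over 56 and the Atm tract over 14.

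A promoter of Cdkn1a holds a p53 response element, shown here with 5 bases on each side (RefSeq, GRCm38.p6, plus strand), with the element in capitals.
Cdkn1a promoter, chr17:29090923-29090952: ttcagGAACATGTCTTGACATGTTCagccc
This element is a pair of back-to-back 10-base p53 sites with 1 mismatch to the consensus, and it begins 51 bases before the start of the gene's span. The consensus is palindromic, so that both strands were searched at once. Of 32851 RefSeq promoter windows of 300 bases (250 before and 50 after a start), 29 (0.0883%) held such a pair with at most 1 mismatch. Among the 11 windows of the 8 genes, 1 had a match, at Cdkn1a. The other Cdkn1a window, with 5 mismatches at best, had none. A match describes letters and is no evidence of binding. None of the 11 windows held an SNV or INDEL call in any of the 7 libraries, and the nearest call to the Cdkn1a window with the element was 386 bases away.

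The 7 tables held 104 calls in the 8 genes, 5 SNVs and 99 INDELs, at 42 sites with 55 distinct alleles. By the deposited annotation 1 call was exonic, 5 were in 3′ UTRs and 98 in introns, with 0 in 5′ UTRs and 0 at splice sites. Repeats held 99 calls, 83 of them simple repeats, and 0 lay in segmental duplications. Of the INDELs in these genes, 96.0% lay in repeats, beside 95.6% of all INDELs in the 7 tables. Depth was under 10 reads for 22 of the 104 calls, and quality, a Phred-scaled score that starts at 20 in these tables, was under 50 for 51. Every gene of the 8 had a call of some kind in at least 1 library, as had 63.3% of all protein-coding genes.

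B-ALL held 17 of the calls, T-ALL 21, AML 15, AUL 18, M-MPAL 11, T-MPAL 8 and the empty control 14. The whole tables held from 36461 SNVs in the control to 47499 in AUL and from 92317 INDELs in T-MPAL to 132423 in T-ALL. Per 10000 INDELs of its own table, the INDELs in the 8 genes numbered 1.48 in AUL, 1.43 in T-ALL, 1.35 in B-ALL, 1.30 in the control, 1.18 in M-MPAL, 1.16 in AML and 0.867 in T-MPAL. The control thus lay inside the range of the 6 leukaemias, and T-MPAL was lowest. Median depth of the calls in these genes, nearly all INDELs, was 12.5 to 18 reads per library, beside 15 to 16 for all INDELs and 26 to 32 for SNVs outside repeats and segmental duplications in the same libraries. Each group is a single library, so no difference between them could be set against replicates, and the intervals below cover counting error only.

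**Figure D1:**
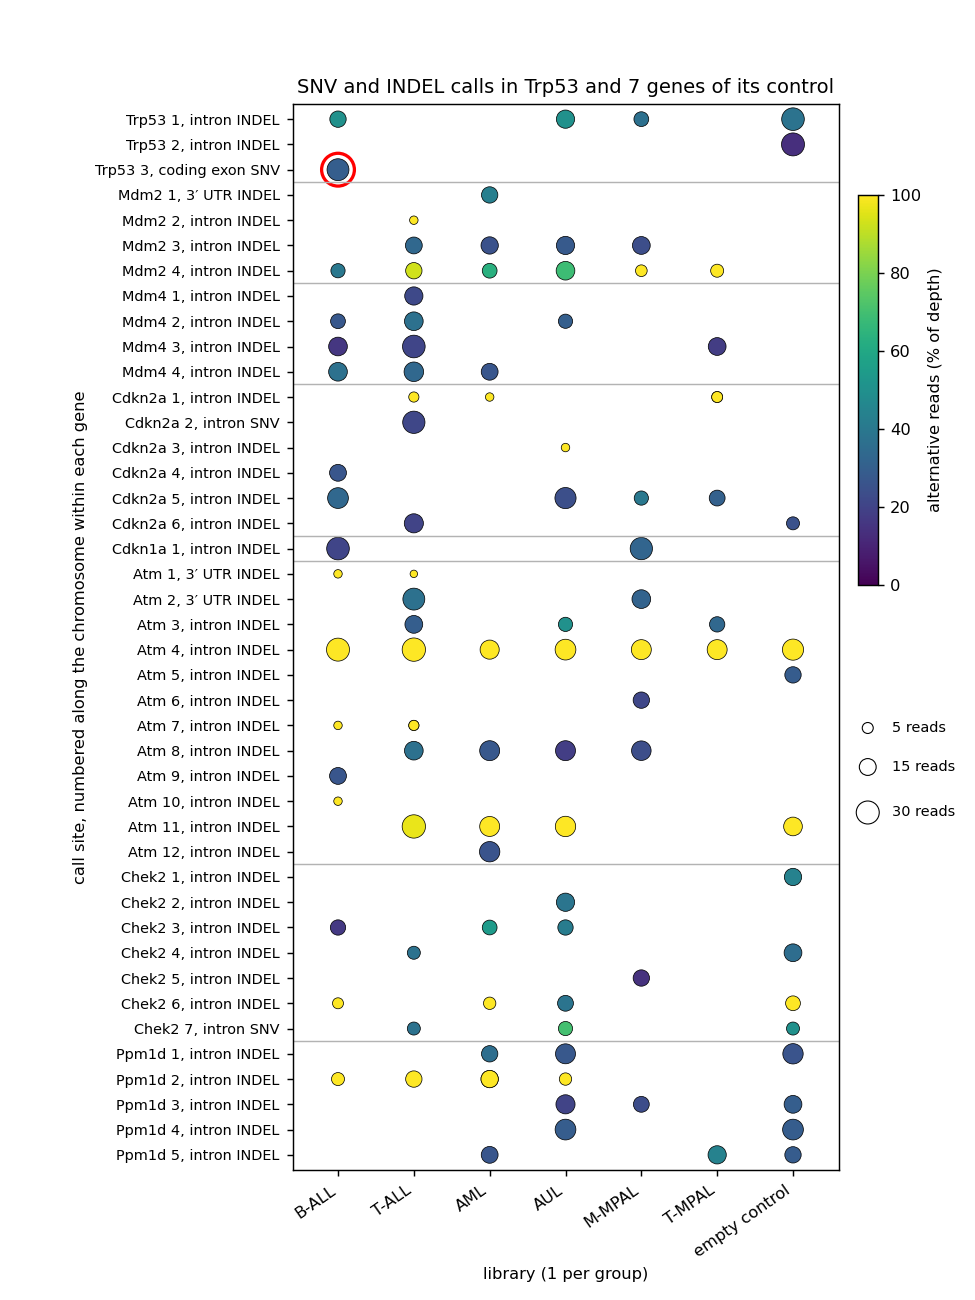
Each row is 1 of the 42 call sites in the 8 genes, numbered along the chromosome within a gene, and each column is 1 library; a point is a deposited call, its colour the alternative reads as a percentage of depth and its size the depth in reads. The ringed point is the Trp53 coding call of B-ALL; Mdm2 site 4 is filled in all 6 leukaemia columns and empty in the control, and Atm site 4 is filled in all 7.

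Trp53 carried a missense SNV in B-ALL at chromosome 11, position 69588703, in exon 6. It is C628T in the coding sequence of 2 annotated transcripts, at base 1 of codon 210, and changes the protein by R210C, within the DNA-binding domain of p53. Of 27 reads, 8 carried the change (29.6%, exact 95% interval 13.8 to 50.2). The 8 alternative reads were split 4 forward and 4 reverse, and the 19 reference reads 10 and 9. Quality was 137 and the mapping quality 48, and the position is in no annotated repeat, segmental duplication or dbSNP entry. The interval takes in 50%, the average share of a heterozygous change present in every cell, so that at this depth a change in all cells and a change in a portion of them cannot be told apart.

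No other library had a call at this base. The nearest call in any library was an intronic INDEL of the control, 3683 bases away. The tables list calls alone and give no depth where none was made, so a low share of the change elsewhere would not be seen. Among SNVs outside repeats and segmental duplications with 22 to 32 reads, the fewest alternative reads behind a call were 3 in AUL and 4 in the other 6 libraries. The lowest called share there was between 12.5% in T-ALL and 15.6% in T-MPAL. These are the lowest values seen at that depth, and the depth at the Trp53 base in the other libraries is not known, so they set no limit for a change there.

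The read share of the Trp53 change was next set beside the other private SNVs of B-ALL, those with at least 10 reads and no call of the same allele in the other 6 libraries. There were 2456, with a median share of 29.4% and quartiles of 23.8% and 36.8%. Of these, 50.8% (48.8 to 52.8) had a lower share than the Trp53 call, whose point value thus lay at the middle. Ranges of such percentages in this paragraph cover the count of SNVs and not the error of the Trp53 share. The interval of the Trp53 share held 2344 of the 2456 shares (95.4%), so its rank is not fixed at this depth. The quality of the Trp53 call stood higher, above that of 93.0% of these SNVs. The place in the ranking moved with the set. Among the 223 others with at least 4 alternative reads, a quality of 100 or more and no segmental duplication, the median share was 38.9% with quartiles of 33.3% and 46.3%, and 17.0% (12.3 to 22.6) lay below the Trp53 call. Its own interval was wide enough to hold 185 of these 223 shares (83.0%). Among the 15 other private protein-altering SNVs 86.7% (59.5 to 98.3) lay below it, a set chosen after seeing the data. The median quality of these 15 was 32.1, and 93.3% had a lower quality than the Trp53 call.

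The share of the Trp53 call was also set beside the 854 SNVs with at least 10 reads that B-ALL shared with AML alone. Their median was 33.3%, with quartiles of 26.1% and 42.4%, and 36.4% lay below the Trp53 share. Under the same limits of quality, reads and segmental duplication and a minimum share of 20%, 361 were left, with a median of 40.0% and quartiles of 33.3% and 47.1%, and 11.6% lay below it. The other private SNVs of B-ALL under those limits, 221 besides the Trp53 call, had a median of 38.9%. On chromosome 11 B-ALL had 81 other private SNVs, 11 of them within these limits, and 1 lay within 1 Mb of the Trp53 change.

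**Figure D2:**
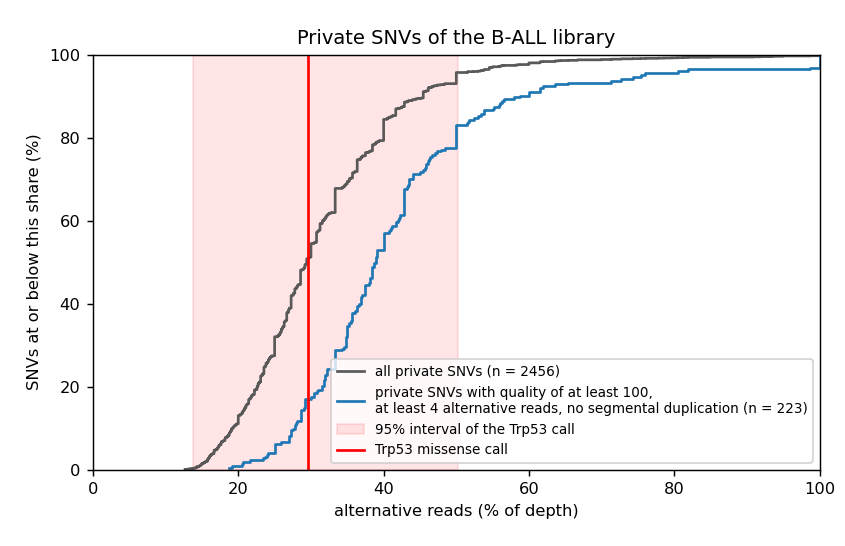
Cumulative share (vertical axis, %) of private B-ALL SNVs at or below a given percentage of alternative reads (horizontal axis), for all 2456 and for the 223 with at least 4 alternative reads, a quality of 100 or more and no segmental duplication. The red line is the Trp53 call at 29.6% and the shaded band its 95% interval of 13.8 to 50.2; the grey curve crosses the line near its middle, at 51.1%, and the blue curve at 17.0%.

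Few private changes of B-ALL were as well read as the one in Trp53. Outside repeats and segmental duplications, 79 of its 473 private SNVs (16.7%) had at least the quality and the alternative reads of the Trp53 call, which is counted among them. The same limits were met by 43 of 505 (8.51%) in the control, 66 of 504 (13.1%) in AML, 586 of 1715 (34.2%) in T-ALL, 262 of 689 (38.0%) in T-MPAL, 509 of 1013 (50.2%) in M-MPAL and 2120 of 3019 (70.2%) in AUL. B-ALL thus lay above AML and the control and below the other 4. Of the 79 in B-ALL, 5 had a share at or below that of Trp53, itself included, and the median of the 79 was 41.9%. The limits come from the Trp53 call itself, with 8 alternative reads of 27. A share as low as its own then needs at least 27 reads, so its low place among the 79 is partly set by the limits. Protein-altering changes made up 2 of the 79, Trp53 and Fmo6, which is annotated as a flavin-containing monooxygenase gene. The Fmo6 change, Q183H, was on 9 of 24 reads (37.5%, 18.8 to 59.4) with quality 172, and its interval overlaps that of Trp53. Fmo6 is named after its values were seen. These 2 genes were also the B-ALL genes with a private protein-altering call under the limits of quality, reads, share and segmental duplication. The private protein-altering SNV of B-ALL with a share within 5 percentage points of that of Trp53 was in Sp140, which encodes a nuclear body protein. It was K217R, on 72 of 292 reads (24.7%), inside a segmental duplication and with quality 21.2.

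Per gene, 1 of the 8 had a protein-altering call in B-ALL and 0 of 8 in each of the other 6 libraries. Over all protein-coding genes such a call was present in 0.777% in AUL, 0.693% in T-ALL, 0.684% in T-MPAL, 0.661% in B-ALL, 0.647% in M-MPAL, 0.647% in the control and 0.606% in AML. Trp53 was chosen for this call, so the count of 1 is no finding about the group.

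The other Trp53 calls were intronic. The GT tract at position 69583876 had 2 added bases in B-ALL on 7 of 14 reads (50%) and in M-MPAL on 4 of 11 (36.4%). It had 2 fewer bases in AUL on 9 of 18 reads (50%) and in the control on 11 of 29 (37.9%). Both alleles of this tract were thus seen in a pair of libraries each, one of them in the control, with qualities of 34.7 to 76.0. A CA tract at position 69585020 had 2 added bases in the control alone, on 4 of 30 reads (13.3%). T-ALL, AML and T-MPAL had no Trp53 call of any kind.

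Mdm2, the ubiquitin ligase that limits p53, had 12 INDEL calls at 4 sites in the 6 leukaemia libraries and 0 in the control. The CA tract at position 117706073 was longer by 2 bases in all 6. The added bases were on 4 of 10 reads in B-ALL (40.0%), 13 of 14 in T-ALL (92.9%), 7 of 11 in AML (63.6%) and 13 of 19 in AUL (68.4%). In M-MPAL they were on 6 of 6 reads and in T-MPAL on 8 of 8. Shares thus ran from 40.0% to all reads, on depths of 6 to 19, and qualities were 85.0 to 221. A call in all 6 leukaemias and not in the control was found at this 1 site of the 39 INDEL sites in the 8 genes, and at 1524 of the 357921 INDEL sites on chromosomes 1 to 19 and X in the 7 tables (0.426%). The depth of the control there is not in the tables. A tract at position 117705673 was shorter by 2 bases in T-ALL (5 of 15 reads), AUL (5 of 18) and M-MPAL (4 of 17), and by 4 bases in AML (4 of 16). The 3′ UTR of Mdm2 had 1 call, a gain of 2 bases in AML at position 117689504 on 6 of 14 reads (42.9%). The last site, at position 117694500, rested on 2 reads in T-ALL.

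Mdm4, the partner of Mdm2 that blocks p53 activity, had 10 intronic INDEL calls at 4 sites, with 0 in M-MPAL and 0 in the control. At position 133008410 a CA tract of 49 bases carried a different length in each of 3 libraries. It was 2 bases longer in B-ALL (3 of 11 reads), 2 shorter in T-ALL (7 of 19) and 4 shorter in AUL (3 of 10). Each of the 3 counted as private by allele, although the tract was called in all 3 libraries. At position 133015743 a loss of 2 bases was called in B-ALL (7 of 19 reads, 36.8%), T-ALL (7 of 21, 33.3%) and AML (4 of 15, 26.7%). Another tract, at position 133015346, had a loss of 2 bases on 15.8% to 20.7% of reads in B-ALL, T-ALL and T-MPAL.

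Cdkn2a, which encodes p19Arf and p16Ink4a, had 13 calls at 6 sites, all intronic, with at least 1 in each library. Its CA tract at position 89284453 was 2 bases longer in B-ALL, on 8 of 24 reads (33.3%). The same tract was 2 bases shorter in AUL (6 of 25 reads), M-MPAL (4 of 10) and T-MPAL (4 of 13). T-ALL had the one SNV of this gene, in an intronic LINE at position 89280615, on 6 of 28 reads (21.4%) with quality 27.1. All 6 alternative reads were reverse, beside 16 forward and 6 reverse reference reads. Sites at positions 89280170 and 89280994 rested on 2 to 5 reads each. No coding exon of Cdkn2a had a call in any library.

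Atm, the kinase that senses DNA breaks, had 30 calls at 12 sites, the most of the 8 genes, over a span of 99.7 kb. One site was common to all 7 libraries. At position 53454026, in an intronic SINE, 1 base was added on all of 20 to 31 reads, with quality 228 in each library and a dbSNP entry, rs256959729. The control carried it like the 6 leukaemias. A run of T at position 53524060, outside annotated repeats and also in dbSNP as rs262493618, was longer by 1 base in T-ALL (30 of 31 reads), AML (22 of 22), AUL (23 of 23) and the control (19 of 19). Quality there was 23.8 to 36.8, near the floor of the tables, so the missing calls of the other 3 libraries are no evidence of another allele. The 3′ UTR of Atm had 4 calls. At position 53439363, a loss of 2 bases was on 10 of 27 reads in T-ALL (37.0%) and 6 of 19 in M-MPAL (31.6%), and at position 53438220 the calls rested on 2 reads in B-ALL and 1 in T-ALL. At position 53495728, 2 bases were lost in T-ALL (7 of 19 reads), AML (6 of 22) and AUL (4 of 22) and gained in M-MPAL (5 of 21). The other Atm sites were in 1 to 3 libraries.

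Chek2, the kinase below Atm, had 15 intronic calls at 7 sites, with 0 in T-MPAL. The SNV at position 110866756 (rs581100564), in a simple repeat, was on 3 of 8 reads in T-ALL (37.5%), 7 of 10 in AUL (70.0%) and 4 of 8 in the control (50%). This SNV lies within the 40-base tract that starts at position 110866720, so the calls at the 2 positions may not be independent. In that tract 8 bases were lost on 5 of 5 reads in B-ALL, 7 of 7 in AML, 5 of 13 in AUL (38.5%) and 11 of 11 in the control. AUL was the library with part of its reads unchanged there, and the control was among those with none. At position 110855343 a loss of 2 bases was on 6 of 11 reads in AML and 5 of 12 in AUL, and a loss of 4 bases on 2 of 12 in B-ALL.

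Ppm1d, the phosphatase that reverses Atm and Chek2 signalling, had 16 intronic calls at 5 sites. The tetranucleotide tract at position 85328604 was longer by 4 bases on 8 of 8 reads in B-ALL, 14 of 14 in T-ALL and 7 of 7 in AUL. In AML its 16 reads were divided between gains of 4 and of 8 bases, in numbers the tables do not give. M-MPAL, T-MPAL and the control had no call there. Elsewhere in Ppm1d the control shared sites with the leukaemias. At position 85339820, 2 bases were lost on 7 of 24 reads in both AUL and the control (29.2%). At position 85340007, 2 bases were lost in AML (4 of 15 reads) and the control (4 of 14) and gained in T-MPAL (8 of 18, 44.4%).

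Cdkn1a, the p21 gene, had the fewest calls, 2 at 1 intronic site, position 29093934 (rs226729146). A GT tract of 32 bases was 2 bases shorter on 6 of 29 reads in B-ALL (20.7%, quality 38.3) and on 9 of 28 in M-MPAL (32.1%, quality 102). The intervals, 7.99 to 39.7 and 15.9 to 52.4, overlap.

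Across the 42 sites, 16 were called in 1 library, 25 in 2 to 6 and 1 in all 7. The control had a call at 14 sites, at 3 of them alone, and 28 were seen in leukaemia libraries without it. Of the INDEL sites, 14 of 39 (35.9%) were called in 1 library, beside 45.1% of all INDEL sites. A call in all 7 libraries was at 1 of the 39 (2.56%), beside 2.61% of all INDEL sites. Of the 39 INDEL sites, 26 (66.7%) lacked the control, beside 72.4% of all INDEL sites. The control alone was called at 3 of the 39 (7.69%), beside 5.49% of all INDEL sites. Calls in at least 2 leukaemias and not in the control were at 15 of the 39 (38.5%), beside 32.8% of all INDEL sites. B-ALL and AML were both called at 6 INDEL sites of these genes, 37.5% of those of B-ALL and 42.9% of those of AML, beside 40.6% and 37.4% over all INDEL sites. M-MPAL and T-MPAL were both called at 3, 27.3% of those of M-MPAL and 42.9% of those of T-MPAL, beside 36.8% and 37.0%. Neither pair had a site to itself in these genes, whereas 1.99% of all INDEL sites were in B-ALL and AML alone and 0.994% in the MPAL fractions alone. Sharing of INDEL sites in the 8 genes was thus near that of the whole tables. Of the 104 calls 23 were private, 6 in B-ALL, 4 in AML, 4 in the control, 3 in T-ALL, 3 in M-MPAL, 2 in AUL and 1 in T-MPAL. Of the 99 INDEL calls 21 were private (21.2%), beside 26.5% of all INDEL calls, and the private share of all INDELs was 24.9% to 29.2% per library. When a call of the same kind within 10 bases in another library also counted as sharing, 13 stayed private, since several tracts carried different lengths in different libraries. The Trp53 missense call was among the 13. Under the limits of quality, reads, share and segmental duplication 30 of the 104 calls were left, of which the Trp53 call and the AML gain of 8 bases in Ppm1d were private by allele. For that gain the 16 alternative reads are summed over the gains of 4 and of 8 bases. Whether the gain of 8 bases alone meets the limits of reads and share is thus not known.

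**Figure D3:**
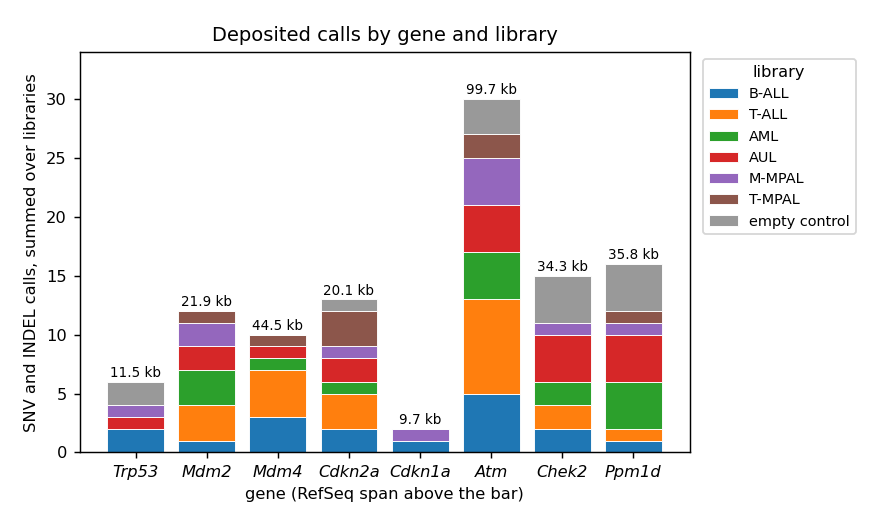
Bars give the number of SNV and INDEL calls in each gene, summed over the 7 libraries and coloured by library, with the length of the RefSeq span above each bar. Atm has 30 calls over 99.7 kb and Trp53 6 over 11.5 kb; the grey control segment is missing from Mdm2, Mdm4 and Cdkn1a.

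Per kb of span, distinct calls numbered 0.447 in Cdkn2a, 0.347 in Trp53, 0.233 in Chek2, 0.228 in Mdm2, 0.223 in Ppm1d, 0.140 in Atm, 0.135 in Mdm4 and 0.103 in Cdkn1a. The median of the 8 was 0.226 per kb, beside 0.0919 over all protein-coding genes, of which many have no call. Over their summed length the 8 genes had 0.198 per kb and all genes 0.172. With spans widened by 2 kb on each side the medians were 0.229 and 0.151. Cdkn2a stood at percentile 95.9 of all genes and Trp53 at 92.4, on 9 and 4 distinct calls, while Cdkn1a stood at 52.3. Different lengths of 1 tract count as separate calls, and these calls lay at 6 sites in Cdkn2a and 3 in Trp53. The 4 of Trp53 include the coding call by which the genes were chosen, so its place is no finding.

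Copy number was called by the authors as whole copies, with 2 as the normal number. Of the 8 genes, Cdkn1a lay under a call, in T-MPAL. That call gave 3 copies over 799 kb, chr17:28392001-29191000, and held the whole gene with 698.978 kb before it and 90.278 kb after it, 18 protein-coding genes in all. Among 51 gains on chromosome 17 in T-MPAL, 44 were at 3 copies and summed to 7.11 Mb, and 2 were longer than the one over Cdkn1a. None of the other tables that reach the region had a call there. SNVs inside the region had a median alternative read share of 36.2% in T-MPAL (18 SNVs), within the 29.7% to 40.7% of the other 6 libraries. Of these 18, 12 lay outside repeats and 5 met the limits of quality, reads, share and segmental duplication. These shares are thus no check of the gain. Read depth per region is not in the tables, so the gain itself cannot be measured again.

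**Figure D4:**
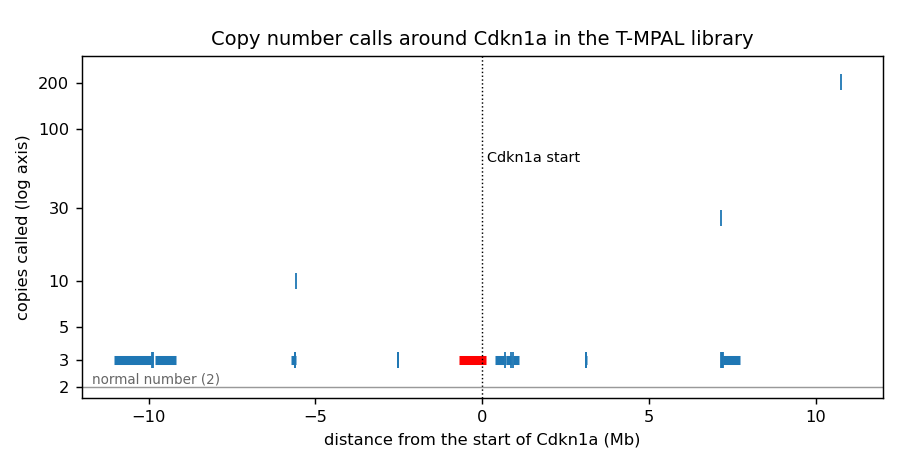
Copy number calls of T-MPAL on chromosome 17 by distance from the start of Cdkn1a (horizontal axis, Mb), with the called copies on a log axis; each bar spans 1 call and the line marks the normal number of 2. The red bar is the 3-copy call of 799 kb over Cdkn1a, with other gains on both sides.

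Over all genes, a copy number call overlapped 8.02% in M-MPAL, 6.49% in B-ALL, 4.29% in T-MPAL, 0.379% in the control and 0.273% in T-ALL. The AML table ended on chromosome 17, past all 8 genes, and overlapped 3.78% of the 19089 genes up to there. The AUL table stopped near the start of chromosome 2 and reached Mdm4 among the 8, with no call. Trp53 lay under no call in the 6 tables that reach it, and the nearest was 15439 to 24469 kb away. In B-ALL, with the missense change, it was 19376 kb away, so no loss or gain was called over Trp53. Cdkn2a also lay under no call. Its nearest was 4896 kb away in M-MPAL, a loss of 8 kb to 1 copy, and 27418 kb away in B-ALL, T-ALL, AML and the control. For Mdm2 the nearest calls lay 4405 to 4473 kb away in the 6 tables. The closest to Atm lay 2805 kb away in M-MPAL and the closest to Chek2 1293 kb away in T-ALL. Mdm4 and Ppm1d lay 4593 and 3621 kb or more from any call.

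A list of 51 other p53 pathway genes was counted in the same way, covering kinases, partners and targets of p53. None had a protein-altering call in any of the 7 libraries, against the 0.606% to 0.777% of all genes given above. Calls of any kind were present in 37 of the 51 (72.5%), beside 63.3% of all protein-coding genes. The median was 0.110 distinct calls per kb, beside 0.0919 over all protein-coding genes. Beside 6.49% of all protein-coding genes in B-ALL, copy number calls overlapped 6 of the 51. These were Crebbp, an acetyltransferase of p53, Usp7, which removes ubiquitin from p53 and Mdm2, the DNA repair kinase Prkdc and the p53 relative Trp63, at 3 copies on chromosome 16, and Kat5, an acetyltransferase, and the death receptor Fas, at 1 copy on chromosome 19. AML had the same 4 genes of chromosome 16 at 3 copies, of 47 genes reached, beside 3.78% of all genes reached. Genes of 1 chromosome may lie under the same gain or loss, so these counts may not be of separate events. M-MPAL and T-MPAL both had the acetyltransferase Ep300 and Rrm2b, a ribonucleotide reductase subunit that p53 induces, at 3 copies on chromosome 15. M-MPAL also had the receptor gene Eda2r at 1 copy on X. Over all genes the share under a call was 8.02% in M-MPAL and 4.29% in T-MPAL. T-ALL and the control had 0 of 51, beside 0.273% and 0.379% of all genes, and AUL had 0 of the 4 reached. The pathway genes under a copy number call were named after their values were seen.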

How the data were processed

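DNA was sheared to 350 bp and read as pairs of 150 bp to an intended 30x, per the labels' protocols. The submitters' processing notes name BWA and mm10 without a version. Per the file headers and names, samtools gave the SNV and INDEL calls, FREEC the copy numbers, and ANNOVAR the genes, repeats and entries of dbSNP build 142. For filters and caller settings, nothing is given in the sources used here. A Phred-scaled quality score, the depth and the alternative reads come with each deposited variant, and the deposited copy number score is in whole copies. The read share is alternative reads over depth. Where a site carries more than 1 alternative allele, the deposited alternative reads are summed over them.

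The members and the pathway list were chosen with earlier results of these data known. A private call had at least 10 reads, lay on chromosomes 1 to 19 or X, and had no call of the same allele in the other 6 libraries. Protein-altering calls were INDELs in exons or at splice sites and SNVs that were missense, gained or lost a stop, or lay at splice sites. A stricter set asked for 4 or more alternative reads, a quality of 100 or more, a share of 20% or more and a place outside segmental duplications. Intervals are exact Clopper-Pearson intervals at the 95% level and cover counting error only. Without molecular identifiers, reads can be copies of 1 molecule. With 1 library per group no test was made. Genes named are the 8 members, pathway genes with a private protein-altering call, and private protein-altering SNVs of B-ALL within 5 percentage points of the Trp53 share, except those said to be named later. Spans and promoters came from RefSeq tables of GRCm38.p6. Of the 13 samples, 6 on integration sites were not analysed here. Alternatives changed depth, quality, repeats, the definition of private, the partner library, chromosomes, spans and the length of copy number calls. Scripts were tested on simulated data and used scipy 1.17.1, pandas 2.3.3 and numpy 2.4.6 under Python 3.11.15, with matplotlib 3.10.9 for figures.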

Additional observations from a re-analysis of the deposited data

How the results depend on the processing

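The Trp53 missense call stayed the 1 protein-altering call, the gain over Cdkn1a the 1 copy number call and the pathway count 0 under each alternative run for them, including copy number without AML and AUL, which was added after seeing the data. The 104 calls fell to 31 at 20 or more reads, to 53 and 30 at a quality of at least 50 and 100, and to 5 outside repeats and segmental duplications. Private calls fell from 23 to 13 when a call within 10 bases counted as shared and to 6 at 20 or more reads. Calls per kb fell from 0.198 to 0.0504 at a quality of at least 100 with 4 alternative reads, where the members' median was 0.0570 and that of all genes 0. The share of private B-ALL SNVs below the Trp53 call, 50.8%, became 33.2% at 5 or more reads, 64.2% at 20 or more, 58.6% within 5 reads of its depth, 17.0% at high quality without segmental duplications, 54.5% outside repeats and 47.1% with AML not asked to lack the SNV. Added after seeing the data, it was 45.1% outside repeats and segmental duplications and 86.7% among protein-altering SNVs. Of 96 alternatives 41 stayed within the limits set for a change and 55 moved. The Trp53 share, just above the median of the main set, lay below the median in 4 of these sets, those giving 33.2%, 17.0%, 47.1% and 45.1%. The causes were not tested. Single calls rest on 1 to 31 reads, which limits each share. No paired analysis was possible because each group has 1 library.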
